A study of Homo sapiens with 6 samples.

Results

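The genes described here encode the proteins of the mitochondrial ribosome. A gene was a member when its official symbol is MRPL or MRPS followed by a number, and MALSU1, PTCD3 and DAP3 were added, while pseudogenes and antisense or divergent transcripts with such a name were left out. The rule found 80 genes, 50 of the large subunit and 30 of the small subunit, among 25420 genes in the tables. The measurements were made in MOLM-13, a human acute myeloid leukemia cell line, by SLAM-seq, which marks RNA made during a short pulse of 4-thiouridine (4sU) through T>C conversions in the reads. There were 3 libraries of cells given the solvent DMSO and 3 of cells given 10 µM C646, an inhibitor of the histone acetyltransferases CBP and p300. All 6 libraries come from cells that received 100 µM 4sU for the last 1 h of a 2 h treatment, and all are of this 1 line, with no knockout or transgene. The question is how the newly made and the total mRNA of these genes differed between C646 and DMSO, in the large and in the small subunit.

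Mitochondria translate a small set of inner membrane proteins, all subunits of the oxidative phosphorylation complexes, on ribosomes of their own. The ribosomal RNAs are encoded in mitochondrial DNA, whereas every protein of these ribosomes is encoded in the nucleus, made in the cytosol and imported. Some of the proteins have counterparts in bacterial ribosomes and the others are found only in mitochondria, and acute myeloid leukemia cells are known to be sensitive to a loss of mitochondrial translation.

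The libraries held 7252597 to 10225448 reads on 3′ UTRs, of which 477824 to 833410 carried a T>C conversion. The members together took 0.872% to 0.991% of the reads on 3′ UTRs. Levels are given in CPM, reads scaled to the library's total of reads on 3′ UTRs times its TMM factor (0.986 to 1.014). T>C CPM are T>C reads on that same scale. T>C reads are called new RNA here, although a single conversion was enough and sequencing errors also give single conversions, a background that no unlabelled library measured here. These are 3′ end reads, and levels of different genes were not corrected for length. In DMSO the myeloid and leukemia markers CD33, FLT3, HOXA9, MEIS1, MPO and ITGAM had medians of 22.6 to 178 CPM, and CD14 had 0, as did CD3E, ALB and EPCAM, which mark other cell types. The labels give replicate numbers and not the cultures behind them, so p-values measure the spread between these libraries, which may be technical. In such bulk samples fewer cells and less RNA per cell cannot be told apart.

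The promoters of 72 of the 80 members were in the RefSeq promoter table (GRCh38.p14, 250 bases before to 50 after the start site), which holds 27305 genes. The letters AAGATGGC, the core bound by the transcription factor YY1, were searched on both strands and stood in 21 of the 72 members (29.2%), against 3.03% of all promoters and 6.89% of the promoters of genes tested for new RNA. In 16 members they lay after the start site on the gene's own strand (22.2%, against 1.39% of all promoters and 4.27% of tested genes), and in 13 of the 22 matches the ATG inside the letters is the annotated start codon. The windows below show the YY1 letters, in capitals, in members whose new RNA fell. They begin 9 to 19 bases after the start site, except in MRPL52, where both matches lie before it.
MRPL20 (chr1:1407260-1407289, minus strand): ccgacccgggcAAGATGGCagcggcgctgc
MRPS10 (chr6:42217834-42217863, minus strand): tcgggaccggcAAGATGGCggcgcggacag
MRPS24 (chr7:43869480-43869509, minus strand): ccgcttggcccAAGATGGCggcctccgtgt
MRPS30 (chr5:44808949-44808978, plus strand): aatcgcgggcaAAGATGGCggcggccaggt
PTCD3 (chr2:86106234-86106263, plus strand): cagagaaatcaAAGATGGCggttgtatctg
MRPL52 (chr14:22829778-22829807, plus strand): tacgatgacccAAGATGGCggagccgtgat
MRPL52 (chr14:22829812-22829841, plus strand): aacccagattcAAGATGGCgacttcctgct

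The letters GCGCATGC of NRF1 and CCGGAAGT of GABPA, factors known for nuclear genes of mitochondrial proteins, stood on either strand in 8.33% and 15.3% of the members, against 3.27% and 4.44% of all promoters and 6.65% and 10.9% of tested genes. A match is a stretch of letters and not a bound site. MRPL17 and MRPL27 are shown for these letters, and MRPL18 for the letters GAANNTTC of a heat shock element. The heat shock letters were searched after the values of MRPL18 had been seen, and stood in 9.72% of members, 6.87% of all promoters and 4.71% of tested genes. They stood in 5.88% of the members called lower, MRPL51 and PTCD3, and in 12.9% of the tested members not called lower. A longer form, with the letters NNGAA after these, stood in MRPL51 and MRPL48 and not in MRPL18.
MRPL17 (chr11:6683403-6683432, minus strand): caggctctgatGCGCATGCgcaaacacgtt
MRPL27 (chr17:50373218-50373247, minus strand): ccacgcagggcCCGGAAGTagatctcctga
MRPL18 (chr6:159789815-159789844, plus strand): gggaagaggttGAACCTTCgcctcaaacga

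New RNA of the mitochondrial ribosomal protein genes was lower after C646 in 36 of the 72 members with enough reads to test and higher in 1, MRPL18. Calls needed an adjusted p of 0.01 or less together with a log2 fold change of 1 or more in either direction, in edgeR's quasi-likelihood test on T>C reads with all reads on 3′ UTRs as the scale. The 36 are 50% of the tested members, against 33% of the 7722 genes tested, and 2.97% of the tested genes were called higher. The members' log2 fold changes had a median of −1.16 with quartiles of −1.54 and −0.47, against a median of −0.83 over all tested genes. In 50 of the 72 members (69.4%, against 55.8% of tested genes) all 3 C646 values lay below all 3 DMSO values, and in 4 they lay above (6.46% of tested genes). The count depends on the scale. With the T>C reads as their own scale, the median of all tested genes was 0.01 and that of the members −0.33, and 7 members were lower (9.72%, against 7.6% of 7847 tested genes) and 6 higher (8.33%, against 9.14%), both near the share among all genes. The 7 were MALSU1, MRPL4, MRPL14, MRPL36, MRPS2, MRPS24 and MRPS26, so the other 29 were called lower against total mRNA only. The 6 were MRPL13, MRPL18, MRPL39, MRPL47, MRPS6 and MRPS22.

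**Figure D1:**
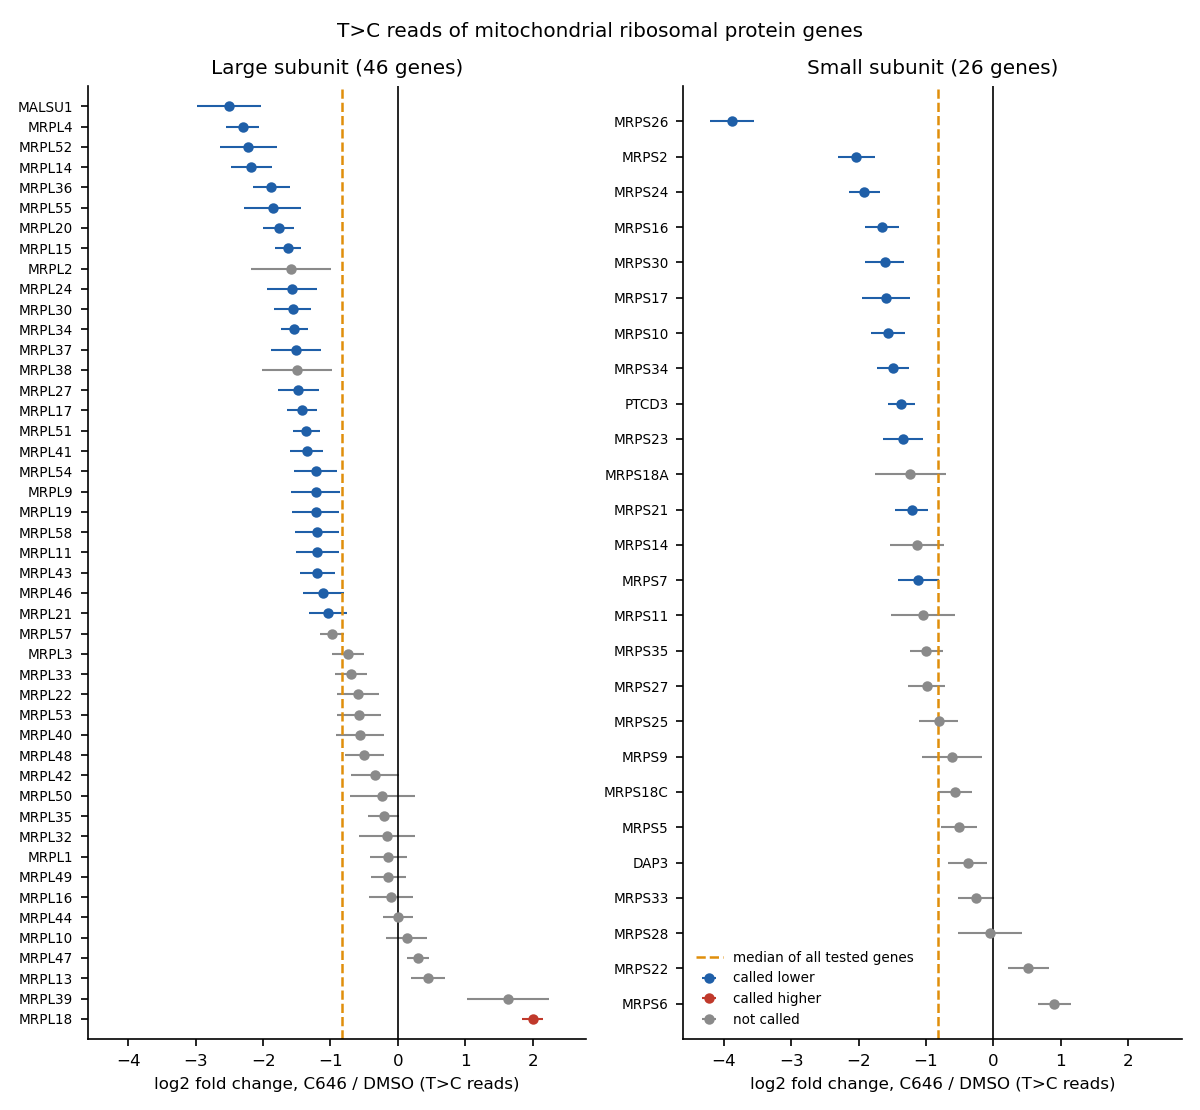
Log2 fold change of T>C reads (C646 over DMSO, scaled by all reads on 3′ UTRs; bars are standard errors of the fit) for the 46 large and 26 small subunit genes tested. Most points of both subunits lie below 0, and the dashed line at −0.83 is the median of all tested genes.

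The medians of large and small subunit genes lay close to each other. Of 46 tested large subunit genes 24 were lower (52.2%), with a median log2 fold change of −1.195, and of 26 small subunit genes 12 were lower (46.2%), with a median of −1.13. Large minus small, the medians differed by −0.07, which is less than the spread of this difference between libraries of a group (SD of 0.095). The sign of the difference of −0.07 turned when genes had to reach a mean of 50 T>C reads (0.14) and without C646 replicate 2 (0.07) or DMSO replicate 2 (0.14), and the difference was also above 0 without C646 replicate 3 (0.01), with the single most read 3′ UTR of each gene (0.02) and after the GC correction described below (0.02). MRPS30 and MRPS18A carry small subunit names but sit in the large subunit in structures of the human mitochondrial ribosome. With both moved there and the assembly factor MALSU1 left out, the median was −1.198 for 47 large and −1.08 for 24 small subunit genes. This difference of −0.12 is larger than the SD of 0.095, but that SD was computed for the first assignment. Neither difference was tested.

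Summed over the members, T>C reads made up 9.01%, 9.20% and 9.13% of the reads in the DMSO libraries and 6.21%, 6.23% and 6.62% in the C646 libraries. All 3 C646 values were lower, as they were over all genes, with 8.74% to 8.86% in DMSO and 6.34% to 6.71% in C646. MRPL18, which rose, accounted for 3.08% to 3.51% of all T>C reads of the members in DMSO and for 18.8% to 20.8% in C646. Without it the T>C share was 9.001% ± 0.0895 (SD, n = 3) in DMSO and 5.38% ± 0.262 in C646. For the small subunit, which does not hold MRPL18, the share was 8.19% ± 0.182 in DMSO and 4.68% ± 0.472 in C646. Conversions per 100 covered T bases, which count bases and not reads, were 0.661 ± 0.0217 in DMSO and 0.419 ± 0.00962 in C646 over all members.

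The largest fall was that of MRPS26, a small subunit protein found only in mitochondria, counted at chr20:3047870-3048250 on the plus strand (GRCh38, as in the files). For all 80 members the most read interval overlapped a UTR that GENCODE release 44 annotates for the gene. MRPS26 had 162, 121 and 106 T>C reads in DMSO and 4, 13 and 11 in C646. The groups did not overlap, at 16.04 ± 1.54 against 1.07 ± 0.532 T>C CPM (mean ± SD, n = 3). The log2 fold change was −3.87 ± 0.33 (SE, adjusted p = 8.07e-11) and lay between −4.23 and −3.58 over the fits with 5 of the 6 libraries. Its T>C share went from 9.61%, 7.88% and 8.88% to 0.482%, 1.54% and 1.13%. All reads of MRPS26 were lower too, at 184 ± 26.6 CPM in DMSO and 103 ± 6.67 in C646 (log2 fold change −0.83 ± 0.14, adjusted p = 0.000733).

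In the small subunit the next falls were those of MRPS2, MRPS24 and MRPS16, which all have bacterial counterparts. MRPS2 had 14.5, 14.97 and 11.98 T>C CPM in DMSO and 3.44, 4.29 and 2.48 in C646 (log2 fold change −2.03 ± 0.27, adjusted p = 5.19e-07). MRPS24, of the small subunit head, had 16.7, 23.8 and 20.5 T>C CPM in DMSO and 5.03, 6.37 and 4.76 in C646 (−1.91 ± 0.24, adjusted p = 1.10e-07). No C646 library reached the lowest DMSO library in either gene. The 3′ UTR of MRPS24 overlaps that of the readthrough gene URGCP-MRPS24, so its reads cannot be told apart from that transcript. MRPS16 had 14.2, 18.4 and 15.1 T>C CPM in DMSO and 5.16, 3.55 and 6.35 in C646 (−1.65 ± 0.25, adjusted p = 4.08e-06), again without overlap.

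In the large subunit the 4 largest falls were those of MALSU1, MRPL4, MRPL52 and MRPL14. MALSU1 is not a ribosomal protein in the strict sense but an assembly factor that binds the large subunit at MRPL14 and keeps the small subunit from joining too early. It had 76, 54 and 33 T>C reads in DMSO and 1, 19 and 10 in C646, with no overlap of the groups in T>C CPM (6.65 ± 1.93 against 1.15 ± 1.11). The log2 fold change was −2.51 ± 0.48, adjusted p = 7.43e-05. It was −2.02 without C646 replicate 1, the library with 1 T>C read, and −3.42 without C646 replicate 2. MRPL14, its binding partner at the subunit interface, had 12.2, 15.2 and 11.98 T>C CPM in DMSO and 4.23, 3.06 and 1.59 in C646, without overlap (−2.18 ± 0.30, adjusted p = 9.24e-07).

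MALSU1 acts in a module with NDUFAB1, the mitochondrial acyl carrier protein, and a microprotein read from the 5′ part of the MIEF1 mRNA, and both genes are named here for that contact. New RNA of MIEF1 was lower, at 13.03 ± 1.24 against 41.4 ± 6.08 T>C CPM (log2 fold change −1.67 ± 0.19, adjusted p = 2.08e-08). New RNA of NDUFAB1 was lower as well, at 8.62 ± 2.01 against 18.1 ± 1.89 (−1.06 ± 0.23, adjusted p = 0.000267). These 3′ reads count the whole MIEF1 mRNA and do not separate the microprotein from MIEF1 itself.

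MRPL4, a protein that lines the exit tunnel, had 20.4, 19.96 and 16.4 T>C CPM in DMSO and 4.10, 3.43 and 3.97 in C646. Its groups stood further apart than their spread (log2 fold change −2.30 ± 0.24, adjusted p = 7.00e-09), while all reads were at 166 ± 6.71 CPM in DMSO and 178 ± 17.2 in C646 (0.10 ± 0.13, adjusted p = 0.587). MRPL52, a mitochondria-specific protein of the central protuberance, had 7.06, 6.10 and 3.90 T>C CPM in DMSO and 0.926, 0.858 and 1.79 in C646. This gene too showed no overlap (−2.22 ± 0.43, adjusted p = 8.54e-05), and its promoter is the one shown above with a pair of YY1 matches. MRPL36 fell by 1.88 on the log2 scale (adjusted p = 2.52e-06), but 19.2% of its reads map to more than 1 place, so its level is uncertain.

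**Figure D2:**
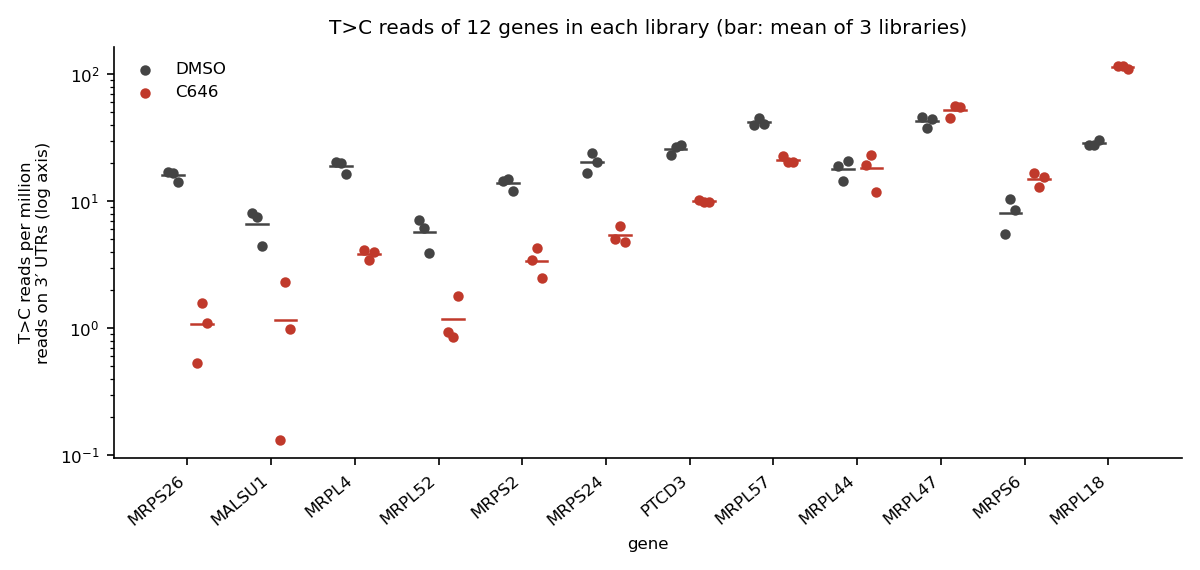
T>C reads scaled to the total of reads on 3′ UTRs times its TMM factor (T>C CPM, log axis) are shown for 12 members. Each of the 3 DMSO and 3 C646 libraries has a point, with a bar at each mean. The C646 points of MRPS26, MALSU1, MRPL4, MRPL52, MRPS2, MRPS24, PTCD3 and MRPL57 lie below all DMSO points, those of MRPL44 and MRPL47 overlap them, and those of MRPS6 and MRPL18 lie above.

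PTCD3 and DAP3 belong to the small subunit under other names. PTCD3, a pentatricopeptide repeat protein, had 23.1, 26.5 and 27.9 T>C CPM in DMSO and 10.2, 9.93 and 9.82 in C646 (log2 fold change −1.37 ± 0.20, adjusted p = 1.90e-06), without overlap. PTCD3 and MRPS10, a protein of the head, had the most T>C CPM of the small subunit in DMSO. MRPS10 had 21.9, 21.5 and 19.3 T>C CPM in DMSO and 9.39, 8.21 and 3.87 in C646 and fell as well (−1.56 ± 0.25, adjusted p = 7.64e-06). DAP3, a GTP-binding protein first found as a mediator of cell death, had 10.1, 5.13 and 7.81 T>C CPM in DMSO and 5.55, 5.76 and 6.45 in C646. Here the groups overlapped and the difference did not pass the test (−0.38 ± 0.29, adjusted p = 0.260).

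None of the 3 MRPS18 paralogs, of which MRPS18C sits at the position of the bacterial protein, was called. MRPS18A had 35, 22 and 17 T>C reads in DMSO and 9, 3 and 22 in C646 (log2 fold change −1.23 ± 0.53, adjusted p = 0.0471), and without C646 replicate 3 it passed the test (−1.95, adjusted p = 0.00697). MRPS18C had 11.5, 10.4 and 10.2 T>C CPM in DMSO and 5.29, 8.46 and 7.84 in C646 (−0.57 ± 0.25, adjusted p = 0.0556). MRPS18B had no T>C read in any of the 6 libraries.

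The large subunit genes with the most T>C CPM in DMSO were MRPL47 and MRPL57. MRPL57, a mitochondria-specific protein, had 39.5, 45.2 and 40.4 T>C CPM in DMSO and 22.7, 20.2 and 20.5 in C646. The groups did not overlap and the adjusted p was 2.65e-05, but the log2 fold change of −0.98 ± 0.17 was just short of the fold cutoff. MRPL47, at the exit of the tunnel, had 45.7, 37.4 and 44.4 T>C CPM in DMSO and 45.4, 55.9 and 55.5 in C646, which overlap (0.30 ± 0.16, adjusted p = 0.121). MRPL44, an RNase III-like protein of the same region, had 17.996 ± 3.20 in DMSO and 18.1 ± 5.76 in C646, a log2 fold change of 0.00 ± 0.23.

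MRPL18 was the only member called higher in T>C reads. It is a protein of the central protuberance and is also known for a form that stays in the cytosol under stress. It is counted at chr6:159798120-159798429 on the plus strand and had 264, 200 and 225 T>C reads in DMSO and 881, 952 and 1110 in C646. Scaled, it had 27.8, 27.7 and 30.3 T>C CPM in DMSO and 117, 117 and 110.1 in C646, so the C646 mean was 3.999 times the DMSO mean, with little spread in either group. The log2 fold change was 1.999 ± 0.15, adjusted p = 8.86e-12, and over the 6 omissions of a library it was 1.98 to 2.05. Total MRPL18 reads rose from 194 ± 6.36 to 498 ± 25.2 CPM (1.36 ± 0.13, adjusted p = 4.66e-06), and its T>C share was 14.7% ± 1.04 in DMSO and 22.98% ± 0.569 in C646. The start site of MRPL18 lies 210 bases from that of TCP1, a cytosolic chaperonin subunit gene read in the other direction, whose T>C reads had a log2 fold change of 0.73 ± 0.15 (adjusted p = 0.000205), short of the fold cutoff.

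In the small subunit the highest value was that of MRPS6, which has a bacterial counterpart. It had 5.48, 10.4 and 8.48 T>C CPM in DMSO and 16.7, 12.99 and 15.5 in C646, all higher. The log2 fold change of 0.90 ± 0.24, adjusted p = 0.00270, missed the fold cutoff, which it passed without DMSO replicate 2 (1.12, adjusted p = 0.00211), while without DMSO replicate 1 the adjusted p was 0.0410. All reads of MRPS6 were at 113 ± 14.1 and 111 ± 4.65 CPM (−0.02 ± 0.14, adjusted p = 0.915). MRPS22, a mitochondria-specific protein, had 4.43, 4.99 and 4.98 T>C CPM in DMSO and 5.03, 7.35 and 8.13 in C646, which did not pass the test (0.52 ± 0.30, adjusted p = 0.140) and had the other sign after a GC correction of its most read 3′ UTR, which is 31 bases long (−0.71).
MRPL39 had 10, 2 and 3 T>C reads in DMSO and 11, 16 and 23 in C646, which did not pass the test (1.64 ± 0.61, adjusted p = 0.0239). Among members with at least 20 T>C reads on average, MRPL13 (0.44 ± 0.25, adjusted p = 0.130) and MRPS33 (−0.25 ± 0.26, adjusted p = 0.426) completed the highest values of their subunits. In both the groups overlapped.

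The share of a gene's reads that carried a T>C conversion compares new with total RNA inside a gene. In DMSO it was highest for MRPL47 (49.1% ± 2.72, SD, n = 3), MRPL10 (25.9% ± 2.28) and MRPS22 (22.2% ± 6.61) among members with a mean of 200 or more reads. It was lowest for MRPS15 (1.37% ± 0.216), MRPL12 (3.01% ± 0.914) and MRPL37 (3.64% ± 0.235). In MRPL47 the share was 47.6%, 47.4% and 52.2% in DMSO and 44.5%, 48.6% and 46% in C646. Whether labelling gave all conversions of MRPL47 was not tested. MRPL10 and MRPL12 are neighbours in the stalk of the large subunit, which recruits translation factors. The tested members had a median share of 8.84% in DMSO and 4.73% in C646, and all tested genes had 13.4% and 7.38%. In 51 of the 72 members the C646 shares all lay below the DMSO shares (70.8%, against 64.5% of tested genes), and in 2, MRPL18 and MRPS6, all lay above (2.18% of tested genes). The odds of a T>C read were fitted in edgeR's quasi-likelihood model with a factor for each library. They were lower at the same cutoffs in 31 members (43.1%, against 38.3% of tested genes) and higher in 1 (0.79% of tested genes), MRPS6, with a log2 change of the odds of 1.04 ± 0.24, adjusted p = 0.000882. The MRPS6 call was lost without DMSO replicate 1 (0.82, adjusted p = 0.0164) and without C646 replicate 1 (0.98). The odds of MRPL18 rose by less than the fold cutoff (0.79 ± 0.15, adjusted p = 9.48e-05).

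The members' median log2 change of the odds was −0.87, against −1.004 over all tested genes. Of the 36 members lower in T>C reads, 23 also had lower odds (63.9% of the 36 and 74.2% of the 31). The 13 called only in T>C reads include MRPL27, MRPL41, MRPS34 and PTCD3, and the 8 called only by the odds include MRPL13, MRPL16, MRPL32 and MRPL33, whose total reads were higher in C646. The largest falls in the odds were those of MRPS26 (−3.16 ± 0.31, adjusted p = 1.73e-08) and MRPL4 (−2.54 ± 0.22, adjusted p = 3.95e-09), which also had large falls in T>C reads.

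**Figure D3:**
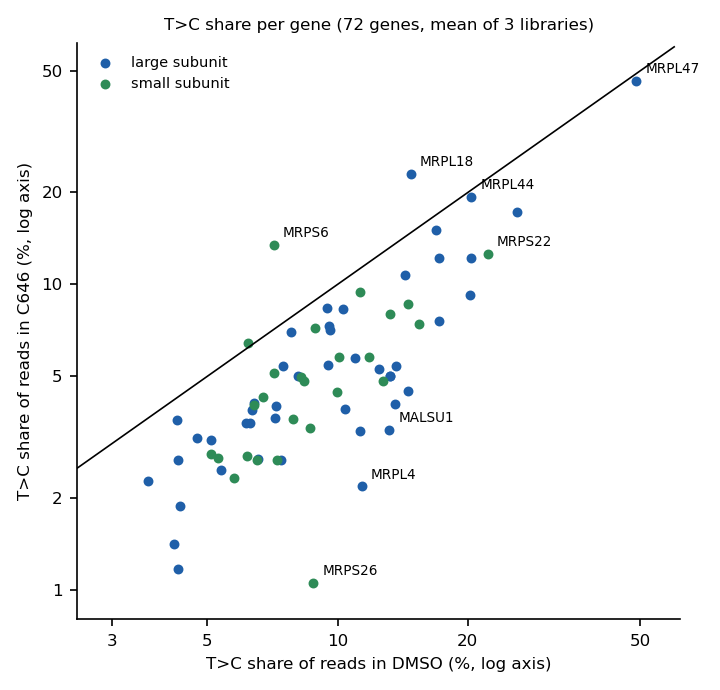
Share of reads with a T>C conversion in DMSO (horizontal) and C646 (vertical), each the mean of 3 libraries in percent on log axes, for the 72 tested members. The line marks equal shares: most points lie below it, MRPS26 is farthest below, MRPL47 is close to it near 49.1% and 46.3%, and MRPL18 and MRPS6 lie above.

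Total mRNA of the members differed less than new RNA. In all reads on 3′ UTRs, 76 members were tested, and at an adjusted p of 0.01 or less without a fold cutoff 17 were lower (22.4%, against 6.28% of 10851 tested genes) and 9 higher (11.8%, against 9.81%). With the fold cutoff 1 was lower (1.88% of tested genes) and 8 were higher (5.89%). The median log2 fold change was −0.23, against −0.00 over all tested genes. The count of 17 was 16 without C646 replicate 1, 3 without C646 replicate 2, 10 without C646 replicate 3, 5 without DMSO replicate 1, 10 without DMSO replicate 2 and 9 without DMSO replicate 3. On the scale of all filtered reads 7 members were lower and 14 higher. Of the 17 genes, 14 were also lower in T>C reads (82.4% of the 17 and 38.9% of the 36), among them MRPS26, MALSU1, MRPL14, MRPS2 and PTCD3. When 1 library was left out, MRPS26 and MRPS2 were called lower in all reads in every case. MRPL14 lost that call without C646 replicate 2 or DMSO replicate 1, MALSU1 kept it only without C646 replicate 3 and PTCD3 only without C646 replicate 1.

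MRPL2, a protein near the peptidyl transferase centre, had the 1 fall past the fold cutoff, with 57.2, 43.1 and 46.5 CPM in DMSO and 26.3, 26.3 and 16.7 in C646. The groups did not overlap (log2 fold change −1.09 ± 0.20, adjusted p = 0.00111), while its 23, 12 and 21 T>C reads in DMSO and 8, 9 and 2 in C646 did not pass the test (−1.58 ± 0.59, adjusted p = 0.0247). The 8 members past the fold cutoff in the other direction were MRPL39, MRPL13, MRPL18, MRPS22, MRPL16, MRPS31, MRPL32 and MRPL33, and MRPS28 was called without it. Of these only MRPL18 was also called higher in T>C reads.

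MRPL13, which has a bacterial counterpart, had 119.9, 69.2 and 149 CPM in DMSO and 264, 349 and 440.5 in C646, without overlap (log2 fold change 1.64 ± 0.24, adjusted p = 0.000241). Its T>C share went the other way, from 12.5% ± 1.15 to 5.29% ± 0.623. MRPL33 had 97.2, 63.9 and 88.3 CPM in DMSO and 135, 144 and 225 in C646 (1.02 ± 0.20, adjusted p = 0.00192), and its share went from 14.6% ± 1.71 to 4.48% ± 0.690. The same opposition was seen in MRPL16, at 42.5 ± 14.99 and 98.7 ± 5.46 CPM (1.22 ± 0.21, adjusted p = 0.000815) with shares of 13.2% ± 3.49 and 4.996% ± 1.18. MRPL32, which a mitochondrial protease matures before it enters the ribosome, had 29.1, 14.6 and 28.3 CPM in DMSO and 47.2, 43.7 and 60.7 in C646 (1.07 ± 0.23, adjusted p = 0.00323). MRPS22 had 21.5, 16.9 and 30.03 CPM in DMSO and 47.7, 51.1 and 63.3 in C646 (1.25 ± 0.20, adjusted p = 0.000583). MRPS31 had 6.64, 7.49 and 12.8 CPM in DMSO and 18.5, 20.3 and 19.4 in C646 (1.12 ± 0.25, adjusted p = 0.00381), and none of these groups overlapped. In MRPL39 few reads stand behind the value, with 3.21 ± 2.98 CPM in DMSO and 16.96 ± 8.49 in C646 (2.34 ± 0.48, adjusted p = 0.00243). Several of these calls depended on a library. MRPS31 lost its call without C646 replicate 2 (adjusted p = 0.0182), DMSO replicate 1 (0.0247) or DMSO replicate 2 (0.0196). MRPL39 lost it without DMSO replicate 2 (0.0144) or DMSO replicate 3 (0.0129), and MRPL33 without DMSO replicate 2 (log2 fold change 0.86, adjusted p = 0.0115). MRPL2, MRPL16 and MRPL32 kept an adjusted p of 0.01 or less without any 1 library, but they and MRPL33 fell short of the fold cutoff in some omissions, with lowest sizes of −0.90 for MRPL2 and 0.75 for MRPL33 without C646 replicate 3 and of 0.96 for MRPL16 and 0.82 for MRPL32 without DMSO replicate 2.

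The base composition of the 3′ UTR moved with these calls. All 9 members higher in all reads had a most read 3′ UTR with under 36% GC, between 6.45% and 35.9%, a line placed after the values were seen. So had 11 of the 50 members called in neither direction and 2 of the 17 lower members. The median was 27% in the higher, 42.8% in the uncalled and 50.6% in the lower members. Across the 76 members Spearman's correlation of the all-read log2 fold change with GC content was −0.58, and across the 10851 tested genes it was −0.37. For T>C reads it was −0.54 over 72 members and −0.32 over 7722 genes, and 25 of the 36 members called lower had 42.9% GC or more, the members' median. All 36 tested members at or above that line, called or not, had a median log2 fold change of −1.36, and all 36 below it −0.57. For the odds of a T>C read, where both counts come from the same 3′ UTR, it was −0.04 over 72 members and −0.10 over 7722 genes. These genes share 6 libraries and are not independent. Fitted per library over all genes, reads of 3′ UTRs with 25% GC stood at −0.40 to −0.16 on the log2 scale in the DMSO libraries and at 0.14 to 0.38 in the C646 libraries. With that curve taken out, a correction added after the data were seen, MRPL13 (1.34), MRPL18 (1.13), MRPL16 (0.94) and MRPL33 (0.82) were still called at an adjusted p of 0.01 or less. MRPL39 (1.64, adjusted p = 0.0115), MRPL32 (0.61, adjusted p = 0.0320), MRPS31 (0.51, adjusted p = 0.105) and MRPS22 (0.07, adjusted p = 0.783) were not, MRPS28 lost its call too, and MRPL10 gained one. With the same correction 38 members were lower in T>C reads (52.8%, against 36.3% of tested genes), 35 of them among the 36. In all reads 16 were lower, 12 of them among the 17 (lost were MRPL20, MRPL38, MRPL41, MRPL54 and MRPS34). The log2 fold change of MRPL18 in T>C reads was then 1.77. The part of GC content in the differences was not tested further.

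**Figure D4:**
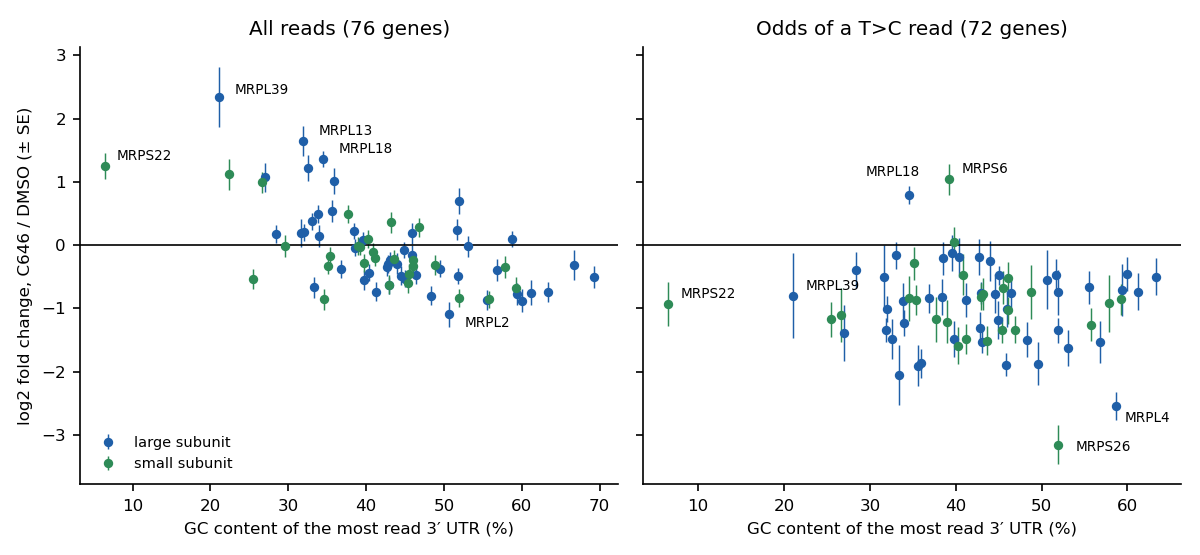
Log2 fold change (C646 over DMSO) of all reads for 76 members (left) and of the odds of a T>C read for 72 members (right) against the GC content in percent of the most read 3′ UTR. On the left the values fall with GC content (Spearman's correlation −0.58), while on the right they do not (−0.04).

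Members were also grouped by their role in the ribosome. Their counts stand beside 33% of all tested genes lower in T>C reads and 38.3% by the odds, and most lists are small. The 40 tested proteins with a bacterial counterpart had 21 genes lower in T>C reads and a median log2 fold change of −1.17, and the 30 found only in mitochondria had 13 lower and a median of −1.05. By the odds, 23 of the 40 were lower (57.5%) and 6 of the 30 (20%), with medians of −1.18 and −0.77, and the difference between these lists was not tested. In the central protuberance, the knob at the top of the large subunit, 4 of 8 were lower (median −1.15), and this group holds both MRPL52 and MRPL18. Of the stalk proteins 2 of 4 tested were lower, MRPL11 (−1.20 ± 0.32, adjusted p = 0.00226) and MRPL54 (−1.22 ± 0.33, adjusted p = 0.00227), while MRPL10 was at 0.13 ± 0.31, adjusted p = 0.734. Around the tunnel exit 2 of 5 were lower, MRPL17 (−1.42) and MRPL24 (−1.57), whereas MRPL22, MRPL44 and MRPL47 had values from −0.59 to 0.30 that did not pass the test. In the head of the small subunit 4 of 9 were lower (median −1.12), MRPS7, MRPS10, MRPS24 and PTCD3, and all 9 had values below 0.

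The YY1 letters stood in 10 of 34 members called lower with a promoter in the table (29.4%) and in 8 of 31 tested members not called lower (25.8%). For the NRF1 letters these shares were 5.88% and 9.68%, and for the GABPA letters 14.7% and 19.4%. MRPL47 and MRPL42, which were not called lower, carry the YY1 letters.

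The 8 members with too few T>C reads to pass the filter were MRPL12, MRPL23, MRPL28, MRPL45, MRPS12, MRPS15, MRPS18B and MRPS31. MRPL12, the stalk protein that also binds the mitochondrial RNA polymerase, had 12, 17 and 9 T>C reads in DMSO and 0, 4 and 2 in C646. Without the filter 78 members were tested and MRPL12 was called lower in T>C reads. Its total reads did not pass the test (log2 fold change −0.50 ± 0.17, adjusted p = 0.0361). MRPS15 had 12, 12 and 7 T>C reads in DMSO and 1, 2 and 9 in C646, with all reads at 93.9 ± 21.7 and 92.7 ± 13.1 CPM. MRPS31 and MRPL28 had 3 to 18 T>C reads per library. MRPL23, MRPL45, MRPS12 and MRPS18B had at most 3 T>C reads in any library and 0 to 5 reads of any kind, too few to pass either filter. MRPS18B had 0 reads in all 6 libraries over its 7 counted 3′ UTRs, while the members had a median of 833 reads per library. Whether these genes were little expressed or their reads ended outside the counted 3′ UTRs was not tested.

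Genes that serve the mitochondrial ribosome without being members were listed by function, and their counts too stand beside 33% of all tested genes lower in T>C reads. Of 3 ribosomal proteins with other symbols 2 were lower, AURKAIP1 (log2 fold change −1.89 ± 0.42, adjusted p = 0.000393) and GADD45GIP1 (−1.39 ± 0.42, adjusted p = 0.00582), and CHCHD1 was at −0.80 ± 0.24, adjusted p = 0.00670. Of 24 tested assembly factors, which include GTPases, RNA helicases and rRNA methyltransferases, 10 were lower (41.7%) and none higher, with a median of −1.03. They ranged from RBFA (−2.57 ± 0.51, adjusted p = 0.000113), a factor of small subunit assembly, to TRUB2 (0.04 ± 0.46, adjusted p = 0.951), a pseudouridine synthase. Among 15 translation factors of the organelle 4 were lower (26.7%) and 1 higher, with a median of −0.61. The lowest was TACO1 (−1.58 ± 0.45, adjusted p = 0.00371), an activator of COX1 translation. The highest was MTRF1 (1.70 ± 0.45, adjusted p = 0.00223), a release factor with 1.25 ± 0.0936 T>C CPM in DMSO and 4.05 ± 0.904 in C646.

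For transcription and copying of mitochondrial DNA, 3 of 6 tested genes were lower (median −0.96), from the helicase TWNK (−2.34 ± 0.24, adjusted p = 3.74e-09) to the transcription factor TFB2M (0.56 ± 0.38, adjusted p = 0.218). Of 7 tested nuclear regulators 4 were lower, namely ESRRA (−2.84 ± 0.31, adjusted p = 1.32e-08), the coactivators PPRC1 (−2.60) and PPARGC1B (−2.56), and NRF1 (−1.34 ± 0.39, adjusted p = 0.00493). YY1 (−0.89 ± 0.20, adjusted p = 0.000565) was short of the fold cutoff, and GABPA had the highest value of the list (0.97 ± 0.52, adjusted p = 0.112). YY1, NRF1 and GABPA are the factors whose letters were searched in the promoters above.

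On the scale of all reads on 3′ UTRs, related families had smaller shares of genes lower in T>C reads. The count of members depended on this scale, and the T>C reads of the families are given on it only. Of 76 tested genes of cytosolic ribosomal proteins 21 were lower (27.6%, median −0.68), and of 71 genes of oxidative phosphorylation 26 were lower (36.6%, median −0.81), beside 50% and −1.16 in the members. By the odds of a T>C read 2.63% of the cytosolic ribosomal protein genes and 28.2% of the oxidative phosphorylation genes were lower, with medians of −0.67 and −0.56, beside 43.1% and −0.87. The median T>C share in DMSO was 3.16% and 4.34% in these families, against 8.84% in the members. In all reads the medians were −0.15, −0.26 and −0.23. The differences between families were not tested.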

How the data were processed

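Reads were made and processed by the authors. Per the file headers and the methods, 3′ end libraries (QuantSeq) were mapped to GRCh38 and counted over 3′ UTRs of RefSeq and Ensembl with SLAM-Dunk 0.4.1. The deposited tables give per 3′ UTR the count of reads and the count of reads with a T>C conversion, which include reads with 1 conversion (520 3′ UTRs of DMSO replicate 1 have exactly 1 such read and 1 conversion). The authors' own test kept reads with more than 1 conversion, so the measure used here is a wider one. The deposited CPM of the authors are scaled to all filtered reads and were used for that total only. The deposited signal columns, the coverage of T bases and conversions on them, gave the conversions per 100 T bases.

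Counts were summed per gene. Library sizes were the totals of reads on 3′ UTRs times their TMM factors, genes were kept by filterByExpr, and edgeR 4.0.16 (R 4.3.3; quasi-likelihood, Benjamini-Hochberg over all tested genes) compared 3 C646 with 3 DMSO libraries in T>C reads, all reads and the odds of a T>C read. DESeq2 1.42.0 was an alternative, with other scales, filters, call rules, single 3′ UTRs, a replicate block and each library left out. The tests were run on simulated counts, with the same dispersion for every gene in T>C reads and binomial counts for the odds. Such counts do not hold the real spread between libraries, so they cannot check how the tests handle it. Depth limits precision: members with few T>C reads were not tested. A share or count over few reads carries counting error, and reads have no molecular identifiers.

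Members and lists were chosen with earlier results of these data known. Named members were MRPS26, MALSU1, DAP3, PTCD3 and the MRPS18 paralogs; per subunit the 4 largest falls and 3 highest values among members with at least 20 T>C reads on average and the 2 with the most T>C reads in DMSO; those called in all reads with the fold cutoff; the 3 highest and 3 lowest T>C shares; and the untested members. Outside the family the lowest and highest gene of each list and any called higher were named. Other names were chosen after their values were seen, as were the GC correction, the heat shock letters and the gene pairs. No unlabelled library was analysed here.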

Additional observations from a re-analysis of the deposited data

How the results depend on the processing

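Of the settings given here, the scale of the T>C reads moved the count of members lower in T>C reads and their median most. The 36 members lower in T>C reads became 7 when TMM factors came from T>C reads alone and 6 when DESeq2 took its size factors from them, the 1 higher became 6 under both, and the median of −1.16 became −0.33 and −0.32. Of all tested genes 7.6% and 7.03% were then lower and 9.14% and 8.84% higher. On the scale of all filtered reads 27 members were lower (37.5%, against 24.3% of tested genes) and 2 higher (2.78%, against 3.96%). Their median was −0.96, against −0.62 over all tested genes. In all reads 7 members were then lower in place of 17 and 14 higher in place of 9. The members' median in all reads was −0.026 in place of −0.23, and that of all tested genes was 0.20 in place of −0.00. With at least 50 T>C reads the median was −1.12 and the large minus small difference of −0.07 turned to 0.14. The fold cutoff left 1 member lower in all reads, and with the GC correction 5 were higher, 4 of them among the 9.

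With each library left out in turn, 31 to 38 members were lower in T>C reads (43.1% to 52.8%, against 24.9% to 31.8% of tested genes). In the same fits 1 to 2 were higher (1.33% to 2.78%, against 2.52% to 3.15%). In all reads 3 to 16 members were lower and 6 to 10 higher. By the odds 23 to 33 members were lower, beside 26.4% to 36% of tested genes. The members' median in T>C reads was −1.20 to −1.07, and the large minus small difference −0.094 to 0.14, above 0 without C646 replicate 2 (0.07), C646 replicate 3 (0.01) or DMSO replicate 2 (0.14). With subunits by structure it was −0.12. Same-numbered libraries did not deviate together in every pair (correlations of 0.030 to 0.065 in T>C reads and −0.0014, 0.136 and 0.231 in all reads, against −0.023 and −0.064 between different numbers), and the labels do not say what a number shares, so the numbers were not used to pair samples. With a replicate block 37 members were lower in T>C reads (51.4%, against 33.5% of tested genes). In all reads 22 members were then lower and 13 higher. By the odds 30 members were lower, beside 35.8% of tested genes. Of 771 values of single named genes under the alternatives, 717 kept their side of the cutoffs, 37 lost the call and 17 gained one, and no called value changed sign. With TMM factors from T>C reads alone, 17 kept their side, 5 lost the call and 5 gained one. With DESeq2 size factors from T>C reads, 16 kept their side, 6 lost the call and 5 gained one. The cause of these differences was not tested. Members with few T>C reads are limited by depth.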

Other observations

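The following values concern neighbouring genes and were looked up after the values of MRPL18 had been seen. Of the members, 20 have a start site within 1000 bases of that of a gene read in the other direction, which makes 19 pairs, since MRPL46 and MRPS11 are each other's partner. Of the partners outside the family, 11 were tested in T>C reads in a pair whose member was tested too. Of the 11, 3 were lower (27.3%, against 33% of all tested genes) and 1 was higher, and in 1 pair both genes were lower. PTCD3, at −1.37, lies 349 bases from POLR1A, a subunit of RNA polymerase I, at −2.60. MRPL54, at −1.22, lies 990 bases from APBA3, at 2.93. MRPL46 and MRPS11, both members, share a start region of 320 bases and were at −1.11 and −1.05. DAP3, at −0.38, lies 435 bases from YY1AP1, at −2.11.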
